A study of Mus musculus with 6 samples.

Results

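Long intergenic noncoding RNAs (lincRNAs) are described here as they were measured in mouse splenic B cells. The members are the rows of the deposited gene table that its annotation calls lincRNA, that lie on an autosome and whose mean over the 6 libraries is at least 1 FPKM (fragments scaled by gene length and by the library total). This gave 174 of the 2215 autosomal lincRNA rows and of the 35275 genes listed. The members were chosen by this measured mean, so levels are given as a description with no test. The study compared B cells of mice with the genotype CD40LΔ5, an altered CD40 ligand, with those of wild-type (WT) mice, to ask how they differ during a response to sheep red blood cells (SRBC). All mice were C57BL/6, 6 to 8 weeks old when injected with SRBC, and spleens were taken on day 8, with B cells isolated by a magnetic pan-B kit and 3 libraries per genotype. The labels name no promoter or clone and do not say whether a library is 1 animal, so p-values measure the spread between these libraries only.

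The deposited sources place the libraries differently. The authors' table of group means has a MUT column that averages the libraries labelled CD40LΔ5 replicate 2, WT replicate 1 and WT replicate 2, and a WT column that averages CD40LΔ5 replicates 1 and 3 and WT replicate 3. Each comparison is therefore given by the labels and by the sets of that table, called MUT-averaged and WT-averaged libraries. Library names below are always those of the labels. The recovered totals were 24320080 to 27866611 reads per library. A B cell gene was high in every library, with Cd79a at 1510 to 1999 FPKM, and Cd3e, a T cell gene, was at 3.03 to 4.21 FPKM.

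A lincRNA gene is transcribed outside coding genes and makes an RNA that is not translated into a known protein. Some of these RNAs stay in the nucleus and organise bodies there, as Malat1 does at nuclear speckles and Neat1 in paraspeckles. Others are hosts: their introns or exons carry small nucleolar RNAs (snoRNAs), which guide the modification of ribosomal RNA, or microRNAs (miRNAs), which repress messenger RNAs through a short seed. In B cells the best-known hosts are those of miR-142, a miRNA of blood cells, of the miR-17 to miR-92a cluster, which acts in B cell development and lymphoma, and of miR-155, which germinal centre responses need.

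The small RNAs within the hosts give a first view of what these loci encode. Of the 174 lincRNAs, 7 held an annotated miRNA gene in their span on their own strand and 10 a snoRNA gene, scaRNAs included, and these are called hosts. 2810008D09Rik, 2900076A07Rik and Snhg4 are in both sets. A small RNA gene on the other strand alone lies within 5330426P16Rik, 6230400D17Rik and Gm26516, which are not counted as hosts. A430104N18Rik is named Mir142hg and Gm26667 is named Mir155hg in the GENCODE M21 annotation. Mature miRNAs of the 3 best-known hosts are shown, from RefSeq (GRCm38.p6), since they are what identifies these hosts, with the seed (bases 2 to 8) in capitals. Both arms are given for miR-142a and a single arm of each hairpin for the others. miR-17-5p and miR-20a-5p share a seed, and so do miR-19a-3p and miR-19b-3p.
miR-142a-5p: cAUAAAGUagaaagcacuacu
miR-142a-3p: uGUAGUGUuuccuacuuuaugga
miR-17-5p: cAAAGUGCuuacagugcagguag
miR-20a-5p: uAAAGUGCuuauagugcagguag
miR-18a-5p: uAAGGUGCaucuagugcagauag
miR-19a-3p: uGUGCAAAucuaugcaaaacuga
miR-19b-3p: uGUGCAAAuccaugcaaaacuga
miR-92a-3p: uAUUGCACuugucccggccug
miR-155-5p: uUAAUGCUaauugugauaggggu

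These lie at chr11:87756867-87756887 and chr11:87756903-87756925 for the miR-142a arms, within chr14:115043684-115044496 for the cluster, and at chr16:84714143-84714165 for miR-155-5p, all on the plus strand. The values below are those of the host rows, and levels of the mature miRNAs were not analysed here. A pair of short members lie on a miRNA hairpin itself. Gm26940 spans 105 bases, and the RefSeq hairpin of Mir219a-1 covers 83.8% of them. The clone that M21 names Gm29362 has 133 bases, and the hairpin of Mir3068 covers 55.6% of them.

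Known snoRNA hosts often begin transcription within a run of pyrimidines, as the genes of ribosomal proteins do. RefSeq holds a promoter that starts within 50 bases of the listed start for 60 of the 174 lincRNAs, 7 of them snoRNA hosts. The stretch from 40 bases before the start to base 50 is shown for 4 of these hosts. They include the 3 hosts with a run of at least 8 bases, so they do not stand for all 7. 2700038G22Rik, 2810008D09Rik and 2900076A07Rik are not shown and had runs of 7, 2 and 6 bases. Capitals mark the longest unbroken run of C and T that comes within 5 bases of the start.
Snhg12: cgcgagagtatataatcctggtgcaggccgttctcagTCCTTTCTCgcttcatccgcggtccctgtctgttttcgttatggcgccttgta
Snhg1: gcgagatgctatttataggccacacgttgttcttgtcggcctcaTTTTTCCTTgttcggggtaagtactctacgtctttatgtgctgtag
Snhg7: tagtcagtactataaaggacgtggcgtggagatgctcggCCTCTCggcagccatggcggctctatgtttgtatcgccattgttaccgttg
Snhg18: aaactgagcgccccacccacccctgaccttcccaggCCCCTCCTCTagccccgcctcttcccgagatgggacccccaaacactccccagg

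They stand at chr4:132308638-132308727 (plus strand), chr19:8723447-8723536 (plus), chr2:26640195-26640284 (minus) and chr15:32244613-32244702 (minus). A run of at least 8 bases was present in 3 of the 7 hosts, in 3 of the 53 other lincRNAs with such a promoter, and in 9.72% of the 32851 promoters in the table. The run was sought on the transcribed strand alone. A TATAAA in the 40 bases before the start was found on that strand in Snhg7 and in 2 of the 60 lincRNAs, against 2.31% of all promoters. These are matches of letters and not measured sites.

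Passing 1 FPKM was uncommon for this class of gene. The 174 members were 7.86% of the autosomal lincRNA rows, against 47.2% of autosomal protein-coding rows, 10.8% of antisense rows and 14.5% of processed transcripts that reached the same mean, and 1213 of the 2215 lincRNA rows were at 0 in all 6 libraries. The median member had a mean of 2.59 FPKM and a listed length of 1572 bases, where all 11252 genes that reached a mean of 1 FPKM (all genes tested) had medians of 11.1 FPKM and 2860 bases. Only 25 members had a mean of at least 10 FPKM, and 61 lay between 1 and 2 FPKM. Just inside the limit were 2210414B05Rik (1.02 FPKM), Gm16576 (1.02 FPKM) and Gm568 (1.01 FPKM), and just outside it Rnu11 (0.979 FPKM), 1700028I16Rik (0.969 FPKM) and Gm16157 (0.969 FPKM).

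**Figure D1:**
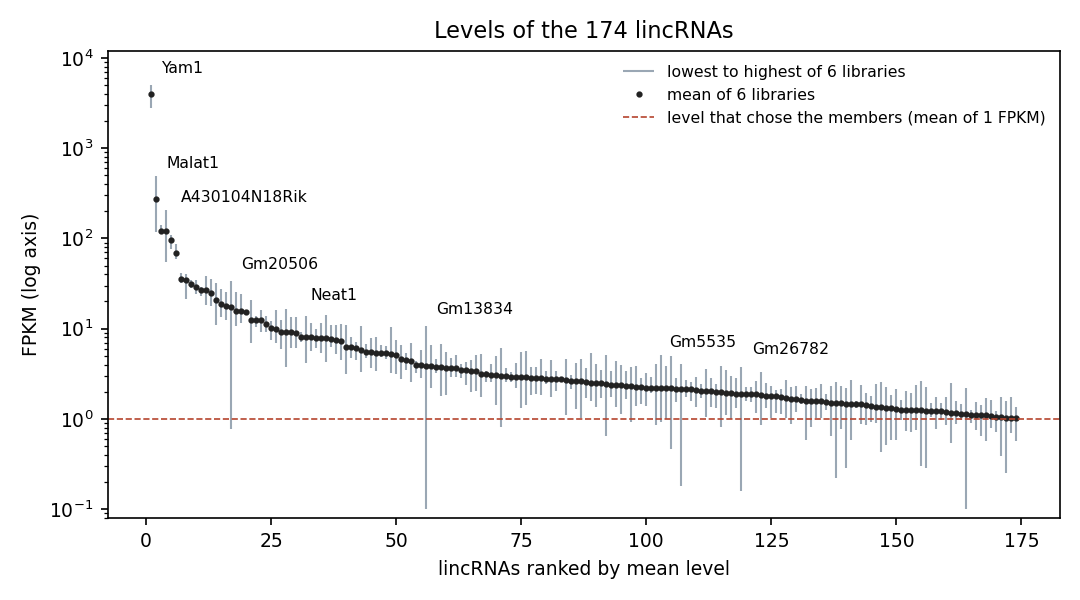
Level of each lincRNA in FPKM on a log axis, ranked by its mean over the 6 libraries (dots), with the range from the lowest to the highest library (grey lines; values under 0.1 FPKM are drawn at 0.1). Yam1 stands far above the others, and a few members such as Gm20506, Gm5535 and Gm26782 span more than 10-fold between libraries.

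Yam1 (ENSMUSG00000098178, chr17:39846958-39848788, plus strand) took most of the lincRNA reads. It measured 3346, 4951 and 4548 FPKM in CD40LΔ5 replicates 1, 2 and 3, against 4221, 4037 and 2751 FPKM in WT replicates 1, 2 and 3. The groups overlapped, with the lowest value in WT replicate 3. In GENCODE M21 the same span is Gm42418, and an rRNA gene, CT010467.1, lies over it on the other strand (chr17:39846353-39848827). The library kit does not mark strand, so reads of the rRNA and of Yam1 cannot be told apart. Yam1 alone held 0.504% to 0.906% of all reads, and the other 173 lincRNAs together 0.457%, 0.678% and 0.376% in CD40LΔ5 replicates 1, 2 and 3, against 0.441%, 0.492% and 0.297% in WT replicates 1, 2 and 3.

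The name of the class fits most members but not all. M21 lists 160 of the 174 identifiers, 118 of them still as lincRNA, 19 as antisense and 10 as transcripts of a bidirectional promoter, while 2, Fam169b and BC033916, are protein-coding there. By the spans in the deposited table, 99 lincRNAs overlapped no other listed gene and 49 overlapped a protein-coding gene. For 33, the start lay within 1 kb of a protein-coding start on the other strand. Reads of an overlapping pair cannot be told apart without strand, so some counts and medians below are also given for the 99 that overlap nothing.

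The lincRNAs tended to be high and low in the same libraries. CD40LΔ5 replicate 2 was the highest library for 102 of the 174 and WT replicate 2 for 41, while WT replicate 3 was the lowest for 86 and CD40LΔ5 replicate 3 for 56. In 45.4% of the lincRNAs the 2 highest libraries were CD40LΔ5 replicate 2 and WT replicate 2, which held for 16.8% of all genes tested. The median deviation from the mean of the 6 libraries, on the log2(FPKM + 1) scale, was 0.00, 0.34 and -0.19 in CD40LΔ5 replicates 1, 2 and 3, against 0.00, 0.19 and -0.31 in WT replicates 1, 2 and 3. For all genes tested it stayed between -0.05 and 0.05. The lincRNAs without an overlap gave -0.01, 0.27 and -0.17 in the CD40LΔ5 libraries, against 0.00, 0.19 and -0.28 in the WT libraries. Within each genotype there was thus a high library and a low one, and the spread of a lincRNA over the 6 libraries was wide: the median SD was 0.31 on the log2(FPKM + 1) scale, where all genes tested had 0.14. Antisense genes and processed transcripts that reached 1 FPKM had a similar pattern, with medians of 0.48 and 0.30 in CD40LΔ5 replicate 2 and of -0.35 and -0.27 in WT replicate 3. In bulk samples, fewer cells of a type and less RNA per cell cannot be told apart.

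**Figure D2:**
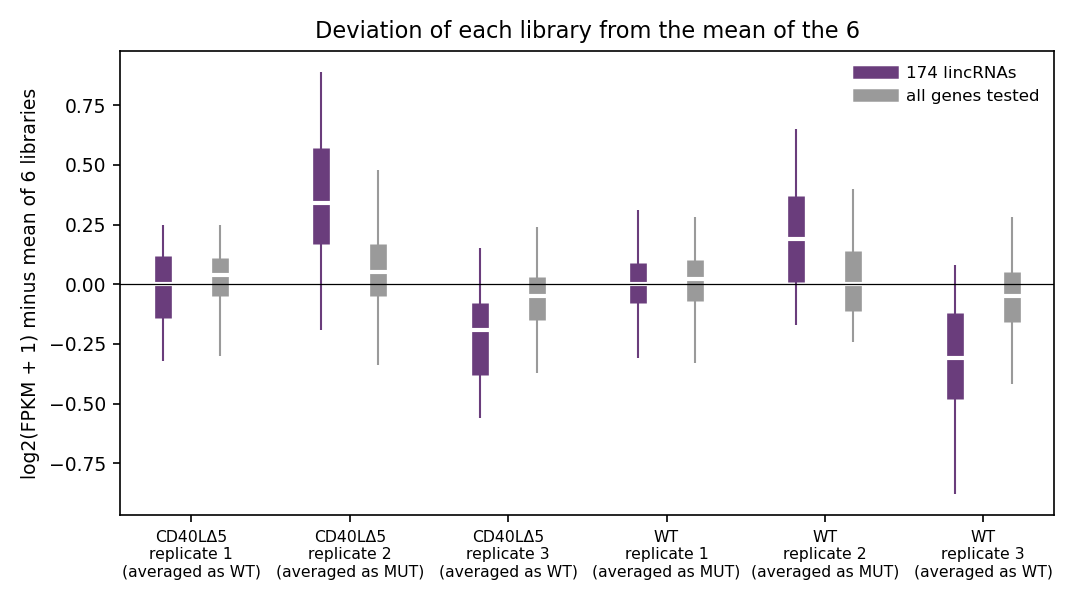
Deviation of each library from the mean of the 6, in log2(FPKM + 1), for the 174 lincRNAs (purple) and all genes tested (grey). White marks are medians, boxes run from the lower to the upper quartile and lines cover the middle 90% of genes. The lincRNAs are highest in CD40LΔ5 replicate 2 (median 0.34) and lowest in WT replicate 3 (median -0.31).

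Some other measures also differed between these libraries. The summed level of 10 interferon-response genes was 57.1, 197 and 63.8 FPKM in CD40LΔ5 replicates 1, 2 and 3, against 93.3, 91.7 and 53.2 FPKM in WT replicates 1, 2 and 3. Immunoglobulin genes took 3.69%, 2.10% and 7.94% of reads in the CD40LΔ5 libraries, against 2.71%, 6.28% and 8.10% in the WT libraries. Markers of neutrophils summed to 45.9, 82.7 and 594 FPKM in the CD40LΔ5 libraries and to 76.7, 70.9 and 344 FPKM in the WT libraries, so that the pair of replicates 3, low in lincRNAs, were the highest in these. Every gene of these marker lists was detected in at least 1 library. The part of each in the lincRNA values was not tested. Leaving immunoglobulin genes out of the totals, which does not remove the RNA of the cells that make them, moved the medians below by no more than 0.02.

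Malat1, the abundant RNA of nuclear speckles (ENSMUSG00000092341, chr19:5795690-5802672, minus strand), was the second in level. It measured 269, 491 and 216 FPKM in CD40LΔ5 replicates 1, 2 and 3, against 256, 272 and 118 FPKM in WT replicates 1, 2 and 3. CD40LΔ5 replicate 2 was the highest and WT replicate 3 the lowest, 4.15-fold apart, and the groups overlapped. Gm20417 is listed over part of the same span, and its reads cannot be told apart. The log2 difference was 0.59 ± 0.41 (SE) by the labels (limma adjusted p = 1) and 0.77 ± 0.36 for MUT-averaged over WT-averaged libraries (adjusted p = 0.407). The RNAs of the 11 listed genes for proteins of speckles and splicing had a median log2 difference of 0.01 by the labels and 0.19 by the table. None of them passed the test. Srsf2, a splicing factor, averaged 78.5 ± 10.9 FPKM in MUT-averaged libraries and 60.1 ± 5.43 FPKM in WT-averaged libraries (SD, n = 3 each; limma adjusted p = 0.354).

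Neat1, the scaffold of paraspeckles (chr19:5824708-5845478, minus strand), lies close to Malat1 on the chromosome and differed strongly between libraries. It measured 6.13, 12.6 and 4.84 FPKM in CD40LΔ5 replicates 1, 2 and 3, against 6.99, 13.7 and 4.15 FPKM in WT replicates 1, 2 and 3. Replicate 2 of each genotype stood about as high as the other, and the genotypes overlapped fully. By the labels the log2 difference was -0.03 ± 0.45 (SE). By the table the 3 MUT-averaged libraries were all above the 3 WT-averaged ones, with a log2 difference of 0.97 ± 0.24 (limma adjusted p = 0.343). The RNAs of the 12 listed genes for paraspeckle proteins had a median log2 difference of 0.02 by the labels and 0.03 by the table. None passed the test and none was at an unadjusted limma p under 0.05 by either.

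The 7 hosts of miRNAs had a median SD of 0.51 on the log2(FPKM + 1) scale over the 6 libraries, where all 174 lincRNAs had 0.31. In 7 of 7, replicate 2 was the highest library of both genotypes, as it was for 56.9% of all 174 and for 22.4% of all genes tested. A430104N18Rik, the host of miR-142 (chr11:87755577-87757270, plus strand), measured 97.9, 189 and 55.2 FPKM in CD40LΔ5 replicates 1, 2 and 3, against 106, 204 and 70.7 FPKM in WT replicates 1, 2 and 3. Replicate 2 was the highest library of each genotype and replicate 3 the lowest. Its log2 difference was -0.19 ± 0.52 by the labels and 1.13 ± 0.29 by the table, where the sets did not overlap (limma adjusted p = 0.343). The deposited length of this gene is 269 bases, far short of its span, so its FPKM rests on only 414 to 1336 reads.

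Mir17hg (chr14:115042879-115046727, plus strand), which carries the 6 hairpins of the miR-17 to miR-92a cluster, measured 2.96, 5.18 and 1.73 FPKM in CD40LΔ5 replicates 1, 2 and 3, against 2.74, 4.44 and 1.99 FPKM in WT replicates 1, 2 and 3. The genotypes overlapped and averaged 3.29 ± 1.75 FPKM in CD40LΔ5 and 3.06 ± 1.26 FPKM in WT (SD, n = 3 each). Gm26667, the host of miR-155 (chr16:84703167-84715245, plus strand), measured 1.13, 2.07 and 0.869 FPKM in CD40LΔ5 replicates 1, 2 and 3, against 1.12, 2.54 and 0.426 FPKM in WT replicates 1, 2 and 3, on 16 to 84 reads. Here too replicate 2 was the highest library of each genotype. E130102H24Rik, which holds Mir101a, stood at 3.33, 10.3 and 4.02 FPKM in the CD40LΔ5 libraries and at 4.33, 5.94 and 3.23 FPKM in the WT libraries. Gm26667 reached the mean of 1 FPKM only through the MUT-averaged libraries, so the values of the miRNA hosts by the table are a description. All 7 miRNA hosts were above 0 by the table, where 62% of all genes tested and 92.5% of the 174 lincRNAs were. Over the 7 the median log2 difference was 0.01 by the labels and 0.75 by the table. The 9 listed genes of miRNA processing had medians of 0.05 and 0.00, and Dicer1, which cuts the hairpins, averaged 11.8 ± 0.763 FPKM in CD40LΔ5 and 10.3 ± 0.798 FPKM in WT (SD, n = 3 each; limma adjusted p = 1).

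**Figure D3:**
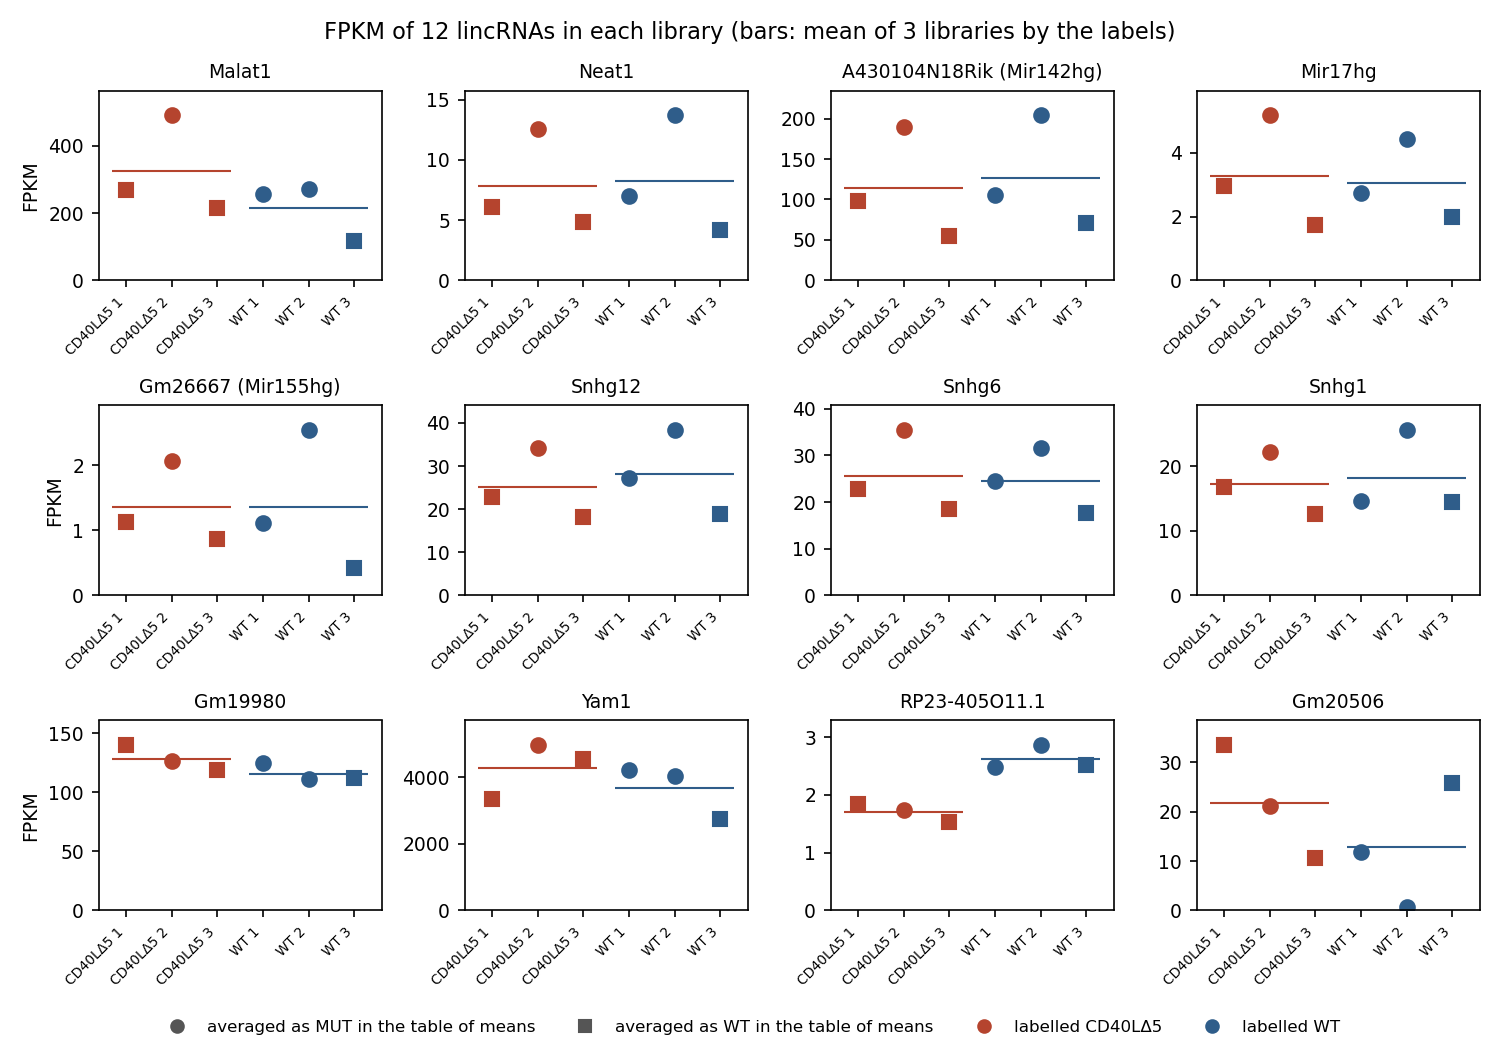
FPKM of 12 lincRNAs in each library, the CD40LΔ5 libraries (red) left of the WT libraries (blue). Circles are libraries averaged as MUT and squares those averaged as WT in the authors' table of means, and bars are the means of 3 libraries by the labels. Replicate 2 of either genotype is high for Neat1, the miRNA hosts and the snoRNA hosts, and Gm20506 is at 0.768 FPKM in WT replicate 2. RP23-405O11.1, picked for the smallest p by the labels, shows no overlap between the labelled groups but did not pass the test.

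In 9 of the 10 snoRNA hosts, replicate 2 was the highest library of both genotypes, and in 6 of the 7 that are not also miRNA hosts. Snhg12, whose span holds the snoRNAs Snora16a, Snora44, Snora61 and Snord99, measured 22.8, 34.2 and 18.1 FPKM in CD40LΔ5 replicates 1, 2 and 3, against 27.3, 38.3 and 19.0 FPKM in WT replicates 1, 2 and 3. The genotypes overlapped. The 3 MUT-averaged libraries were all above the others, at 33.2 ± 5.54 FPKM against 20.0 ± 2.50 FPKM in WT-averaged libraries (SD, n = 3 each; log2 difference 0.70 ± 0.14 SE, limma adjusted p = 0.343). Snhg6, which holds Snord87, measured 22.8, 35.4 and 18.5 FPKM in the CD40LΔ5 libraries and 24.6, 31.5 and 17.6 FPKM in the WT libraries. Snhg1, with 8 snoRNA genes in its span and a start 127 bases from that of Slc3a2, measured 16.8, 22.3 and 12.6 FPKM in the CD40LΔ5 libraries and 14.6, 25.6 and 14.5 FPKM in the WT libraries. For Snhg1 neither split separated the libraries.

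The lower hosts looked alike. 2810008D09Rik, named Snhg20 in M21, measured 5.37, 9.41 and 3.13 FPKM in CD40LΔ5 replicates 1, 2 and 3, against 5.68, 11.1 and 3.28 FPKM in WT replicates 1, 2 and 3. Snhg7 measured 1.09, 2.69 and 0.849 FPKM in the CD40LΔ5 libraries and 1.27, 2.28 and 0.582 FPKM in the WT libraries. Snhg18, which holds Snord123, was the 1 host that did not follow, at 1.39, 1.14 and 2.01 FPKM in the CD40LΔ5 libraries and 2.22, 1.58 and 1.03 FPKM in the WT libraries. Over the 10 hosts the median log2 difference was -0.01 by the labels, with 5 of 10 above 0, where 55.5% of all genes tested were. By the table it was 0.65, with 10 of 10 above 0 and 7 of 10 without overlap between the sets. Of all genes tested, 62% were above 0 by the table and 12.1% were higher without overlap, and of the 174 lincRNAs 92.5% and 28.7%. Snhg7 reached the mean of 1 FPKM only through the MUT-averaged libraries, so the host values by the table are a description. The RNAs of the 8 genes for proteins of snoRNA particles had medians of -0.05 by the labels and 0.06 by the table, none past the test. By the table the median of the host RNAs was thus larger than that of these genes.

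By the labels, no lincRNA passed the test between CD40LΔ5 and WT, and neither did any other gene: limma with Benjamini-Hochberg adjustment called 0 of 174, beside 0 of 11252 genes tested (0%). limma voom on the recovered reads also called 0 of 174. At an unadjusted p under 0.05, 1 lincRNA was higher, where 0.915% of all genes tested were, and 2 were lower, where 0.32% were. The groups did not overlap for 1 lincRNA on the higher side (2.98% of all genes) and for 3 on the lower side (1.32%). The log2 difference was above 0 for 117 of the 174 and for 62 of the 99 that overlap no listed gene. Of all genes, 55.5% were above 0. The median of the 174 was 0.08, where that of all genes was 0.01. This median depended on single libraries, and was -0.06 without CD40LΔ5 replicate 2, -0.04 without WT replicate 3 and 0.22 without CD40LΔ5 replicate 3.

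RP23-405O11.1 (chr5:25530013-25531466, plus strand; 1700096K18Rik in M21) had the smallest p of the lincRNAs by the labels. It measured 1.85, 1.74 and 1.53 FPKM in CD40LΔ5 replicates 1, 2 and 3, against 2.48, 2.86 and 2.52 FPKM in WT replicates 1, 2 and 3, on 62 to 101 reads. All 3 CD40LΔ5 values lay under all 3 WT values, with a log2 difference of -0.42 ± 0.12 (SE; limma adjusted p = 1). Gm20109, 4857 bases from Fkbp5, measured 0.877, 1.14 and 0.588 FPKM in the CD40LΔ5 libraries and 1.58, 2.14 and 1.30 FPKM in the WT libraries, again without overlap, on 11 to 35 reads. It reached the mean of 1 FPKM only through the WT libraries, so this is a description. RP23-370J16.1, the other lincRNA that lay lower without overlap, reached 0.959 to 1.20 FPKM in the CD40LΔ5 libraries and 1.23 to 1.49 FPKM in the WT libraries.

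On the higher side, Gm13834 measured 2.95, 10.6 and 4.71 FPKM in CD40LΔ5 replicates 1, 2 and 3, against 3.14, 1.8 and 0 FPKM in WT replicates 1, 2 and 3. It rests on 0 to 36 reads over a listed length of 137 bases, and the groups overlapped. Gm27017, which overlaps Dleu2, was the lincRNA that lay higher without overlap, at 1.63, 2.58 and 1.70 FPKM in the CD40LΔ5 libraries and 1.61, 1.13 and 0.221 FPKM in the WT libraries. Its lowest CD40LΔ5 value, 1.63 FPKM, lay just above its highest WT value, 1.61 FPKM, and it reached the mean of 1 FPKM only through the CD40LΔ5 libraries. Gm29362, on the Mir3068 hairpin, stood at 2.49, 6.05 and 3.78 FPKM in the CD40LΔ5 libraries and at 0.883, 3.71 and 0.818 FPKM in the WT libraries, on 3 to 20 reads. Gm26836 had 1.67, 3.85 and 2.13 FPKM in the CD40LΔ5 libraries and 1.82, 1.47 and 0.809 FPKM in the WT libraries, and Ywhae, the coding gene it overlaps, a log2 difference of -0.02.

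By the sets of the authors' table, the lincRNAs leaned one way without any single call. The MUT-averaged set holds replicate 2 of both genotypes and the WT-averaged set replicate 3 of both, the high and low libraries described above. The lean therefore restates that pattern between libraries and is not a separate result. None of the 174 passed the test, where 3 of the 11252 genes did (0.0267%). limma voom on the recovered reads called 0 of 174 as well. The log2 difference of MUT-averaged minus WT-averaged libraries was above 0 for 161 of the 174, where 62% of all genes were above 0. An unadjusted p under 0.05 was reached by 62 lincRNAs on the higher side, where 9.39% of all genes reached it, and by 0 on the lower side, where 3.61% did. The sets did not overlap for 50 on the higher side (12.1% of all genes) and for 1 on the lower side (4.79%). Of the 99 lincRNAs that overlap no listed gene, 89 were above 0. Among these 99, 34 reached that p on the higher side and 0 on the lower side. The sets did not overlap for 28 of the 99 on the higher side and for 1 on the lower side. A mean under 1 FPKM in the WT-averaged libraries was found for 23 lincRNAs, among them Snhg7 and Gm26667, and in the MUT-averaged libraries for 0. Those 23 reached the limit through the higher set alone, so these counts are a description of the rows chosen.

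The median log2 difference of the lincRNAs by the table was 0.34, where all genes tested had 0.05 and protein-coding genes 0.04. It stayed between 0.25 and 0.44 when each library was left out in turn. It was 0.29 for the 99 lincRNAs that overlap no listed gene and 0.33 for the 161 with at least 10 reads in every library. By level it was 0.34 at 10 FPKM or more, 0.37 between 2 and 10 FPKM and 0.31 between 1 and 2 FPKM. The 183 antisense genes had a median of 0.38 and the 108 processed transcripts of 0.33, so other noncoding classes leaned the same way. The summed markers of natural killer cells were 59.8, 54.1 and 49.8 FPKM in CD40LΔ5 replicate 2 and WT replicates 1 and 2, averaged as MUT, and 23.4, 34.8 and 29.5 FPKM in CD40LΔ5 replicates 1 and 3 and WT replicate 3, averaged as WT. Germinal centre markers summed to 69.7, 52.6 and 161 FPKM in MUT-averaged libraries and to 214, 125 and 202 FPKM in WT-averaged libraries, with 0 of 10 genes above 0. Other lists also leaned by these sets. By the table, 10 of 10 markers of monocytes and macrophages (median log2 difference 0.63), 9 of 9 of erythroid cells (0.59), 10 of 10 interferon-response genes (0.94) and 9 of 9 of T cells (0.18) were above 0. Of the markers of neutrophils 0 of 9 were above 0 (-1.55), and of plasma cells 0 of 8 (-0.60). None of these genes passed the test, and the part of these cells in the lean was not tested.

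**Figure D4:**
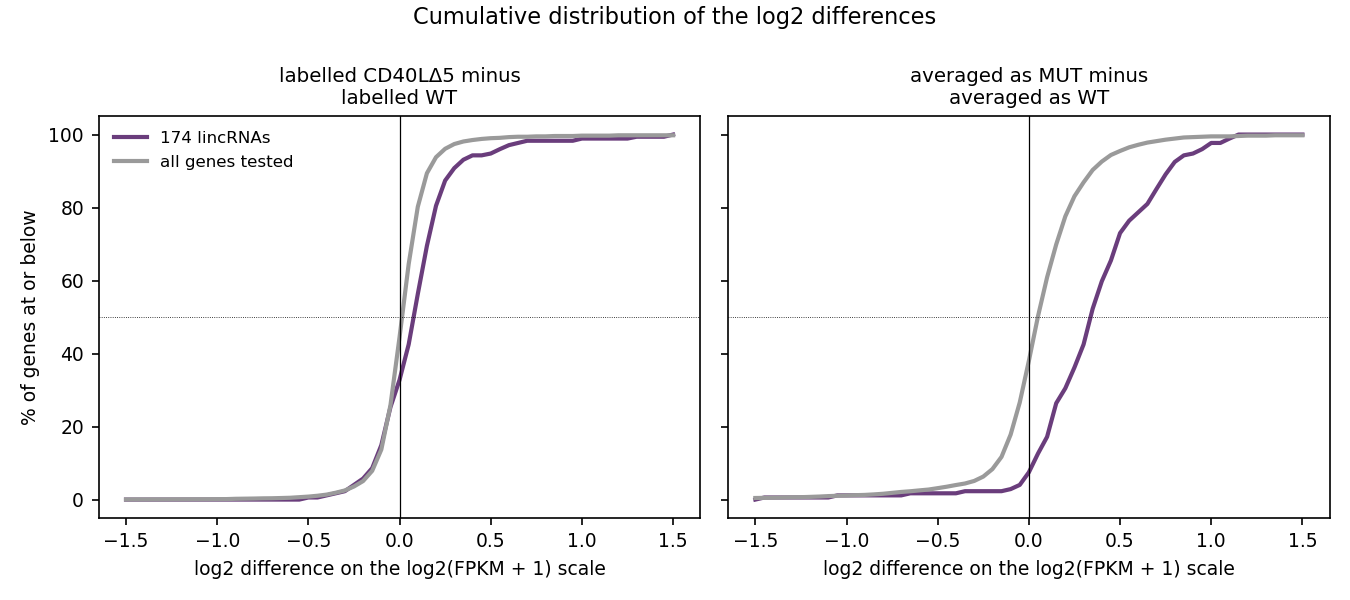
Cumulative share of the 174 lincRNAs (purple) and of all genes tested (grey) at or below a log2 difference, on the log2(FPKM + 1) scale, by the labels (left) and by the sets of the authors' table of means (right). By the labels the lincRNA curve lies a little to the right above 0, with medians of 0.08 and 0.01, and by the table the lincRNA curve lies further to the right, at a median of 0.34 against 0.05.

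RP23-32C18.2 (chr19:11362278-11363890, plus strand; Gm28935 in M21) had the smallest p of the lincRNAs by the table. It measured 1.84, 1.86 and 2.24 FPKM in CD40LΔ5 replicate 2 and WT replicates 1 and 2, averaged as MUT, against 0.713, 0.758 and 0.510 FPKM in CD40LΔ5 replicates 1 and 3 and WT replicate 3, averaged as WT. The log2 difference was 0.85 ± 0.13 (SE), on 8 to 31 reads. With a WT-averaged mean of 0.660 FPKM, it reached the mean of 1 FPKM only through the MUT-averaged libraries, so its separation is a description. 1300002E11Rik rests on more reads, 598 to 883. It measured 10, 8.48 and 9.79 FPKM in CD40LΔ5 replicate 2 and WT replicates 1 and 2, against 6.82, 6.39 and 6.11 FPKM in CD40LΔ5 replicates 1 and 3 and WT replicate 3. It averaged 9.43 ± 0.826 FPKM in MUT-averaged libraries and 6.44 ± 0.360 FPKM in WT-averaged libraries (SD, n = 3 each; log2 difference 0.49 ± 0.09 SE, limma adjusted p = 0.343). Its 3 values in each set lay close together and the sets did not overlap. Gm5914 overlaps Ctcf, the gene of a chromatin insulator protein, and reads of the pair cannot be told apart without strand. Ctcf had a mean of 66.2 FPKM over all libraries. Gm5914 measured 4.08, 2.09 and 3.84 FPKM in the MUT-averaged libraries in the same order, against 1.37, 0.861 and 0.870 FPKM in the WT-averaged ones. It averaged 3.34 ± 1.09 FPKM in MUT-averaged libraries and 1.03 ± 0.293 FPKM in WT-averaged libraries (SD, n = 3 each; log2 difference 1.07 ± 0.22 SE, limma adjusted p = 0.343).

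Few lincRNAs leaned the other way by the table. Gm20506 (chr17:34249057-34250264, plus strand) had the largest negative value, -1.47 ± 0.91 (SE; limma adjusted p = 0.489), and the widest range of all 174. It measured 33.4, 21.1 and 10.7 FPKM in CD40LΔ5 replicates 1, 2 and 3, against 11.8, 0.768 and 25.8 FPKM in WT replicates 1, 2 and 3, from 11 to 534 reads. WT replicate 2 was far below the rest and the genotypes overlapped. H2-Ob, 3150 bases away, encodes a chain of H2-O, which tempers antigen loading in B cells, and lay between 249 and 353 FPKM in the 6 libraries. Gm5535 measured 1.46, 0.254 and 3.62 FPKM in the CD40LΔ5 libraries and 0.180, 3.35 and 4.05 FPKM in the WT libraries, so that each genotype held both low and high values. 4933404O12Rik was the lincRNA that lay lower without overlap by the table, at 1.32 to 1.37 FPKM in the MUT-averaged libraries and 1.5 to 1.59 FPKM in the WT-averaged ones.

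The lincRNAs and the coding genes beside them differed in their values. For 98 of the 174, the nearest protein-coding gene lay within 5 kb or overlapped and was itself tested. In 87 of these 98 pairs the log2 difference by the table was larger for the lincRNA than for its neighbour, and in 51 by the labels. Some of these lincRNAs, such as Gm26782, Gm26667 and Gm13708, reached the level limit only through the MUT-averaged libraries. Some pairs also share a neighbour, such as Chd1 or Akap10. The counts and medians by the table are therefore a description of the rows chosen. The medians by the table were 0.32 for the lincRNAs and 0.00 for the neighbours, and by the labels 0.08 and 0.04. For 31 tested coding genes, the start lay within 1 kb of a lincRNA start on the other strand, with or without overlap of the pair. They had a median of -0.02 by the table, and 13 of the 31 were above 0. For overlapping pairs, the share of reads that belong to the other gene was not tested.

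**Figure D5:**
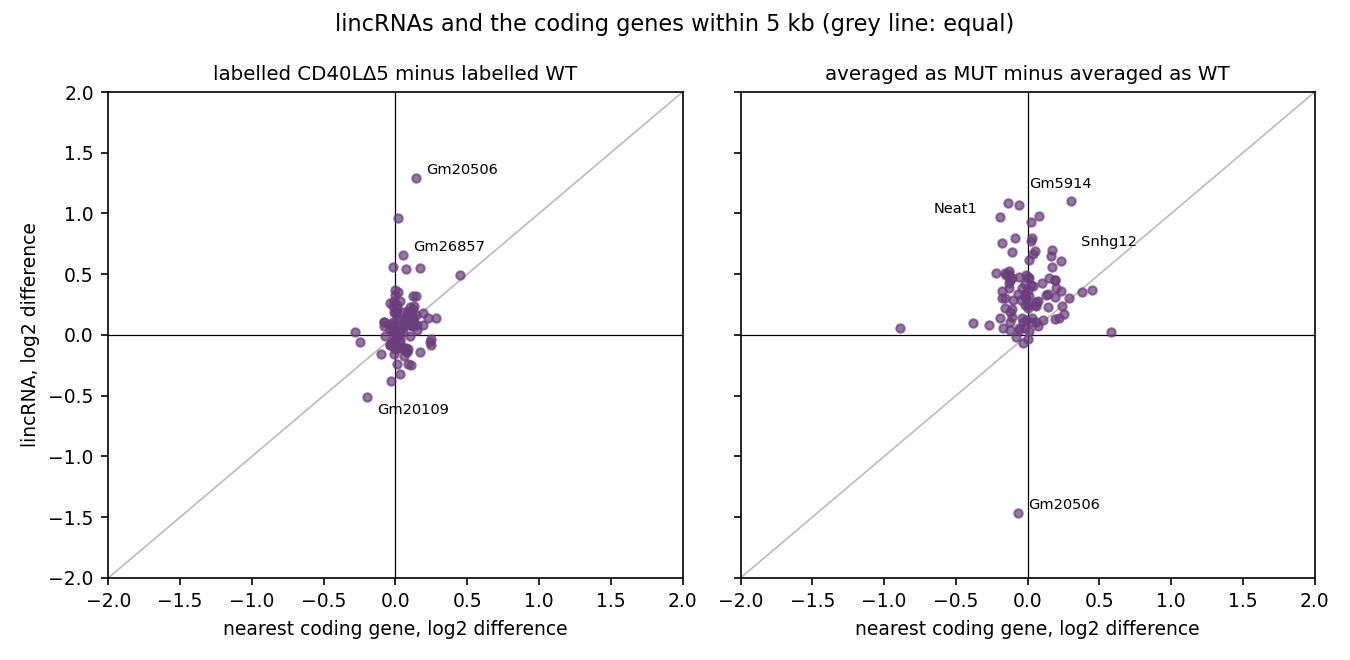
Log2 difference of a lincRNA (vertical axis) against that of its nearest coding gene within 5 kb (horizontal axis) for 98 pairs, by the labels (left) and by the sets of the authors' table of means (right). By the table the coding genes centre at 0.00 while most lincRNAs lie above 0, with Gm20506 at -1.47 as the lowest.

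A pair of abundant lincRNAs beside genes of B cell transcription factors varied little. M21 lists neither of them, and each lies past the end of the coding gene on the same strand. Whether their reads belong to the coding gene was not tested. Gm19980 (chr4:44524757-44529159, minus strand), 1986 bases from Pax5, which encodes the transcription factor that commits cells to the B lineage, measured 140, 127 and 119 FPKM in CD40LΔ5 replicates 1, 2 and 3, against 125, 111 and 112 FPKM in WT replicates 1, 2 and 3. The highest and lowest were 1.26-fold apart, and its log2 difference was 0.15 ± 0.10 (SE) by the labels and -0.03 ± 0.11 by the table. Pax5 itself had 0.12 and 0.00. Gm20645, 1157 bases from Rel, an NF-kB subunit, stood between 32.2 and 40.9 FPKM in the CD40LΔ5 libraries and between 33.1 and 35.9 FPKM in the WT libraries, and Rel had a log2 difference of 0.23 by the labels and -0.17 by the table. Gm26857, which overlaps Lyn, a kinase of B cell receptor signalling, was not steady, at 1.59, 4.96 and 2.11 FPKM in the CD40LΔ5 libraries and 2.55, 1.36 and 0.466 FPKM in the WT libraries, while Lyn lay between 106 and 130 FPKM. Pvt1, downstream of Myc, measured 2.43, 2.14 and 1.33 FPKM in the CD40LΔ5 libraries and 1.96, 2.45 and 1.67 FPKM in the WT libraries.

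The 12 most abundant lincRNAs also include 5 whose libraries lay less than 1.5-fold apart. 1700020I14Rik measured 23.1 to 28.7 FPKM over the 6 libraries, RP24-69I6.1 28.1 to 34.2 FPKM, Fam169b 24.1 to 34.9 FPKM, AI662270 58.7 to 86.6 FPKM and AU020206 75.7 to 108 FPKM. By the sets of the table, RP24-69I6.1, Fam169b and AU020206 were higher without overlap in the MUT-averaged libraries. 2410004N09Rik, which holds a snoRNA gene, spanned 21.5 to 40.4 FPKM, with the lowest value in WT replicate 3. The 42 lincRNAs with a symbol that is neither a Gm number nor a Rik clone name had log2 differences from -0.42 to 0.96 by the labels and from -0.05 to 1.09 by the table, where 41 of them were above 0. AI662270 was the 1 below 0 by the table. Among the widest ranges, Gm26782, which overlaps Tep1, stood at 2.30, 1.60 and 0.357 FPKM in the CD40LΔ5 libraries and at 3.12, 3.80 and 0.159 FPKM in the WT libraries, both replicates 3 being low. Reads were few for some members: 13 had under 10 reads in at least 1 library.

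Genes whose products degrade noncoding RNA had median differences near those of all genes. Of the 19 listed genes of the RNA exosome and its nuclear cofactors, 13 were above 0 by the labels and 12 by the table, with medians of 0.01 and 0.03 and none past the test. Zcchc7, a cofactor of the exosome, averaged 24.8 ± 5.02 FPKM in MUT-averaged libraries and 18.6 ± 2.72 FPKM in WT-averaged libraries (SD, n = 3 each; limma adjusted p = 0.375). The 10 genes of nonsense-mediated decay, which removes many spliced snoRNA hosts, had medians of 0.06 by the labels and 0.04 by the table. Smg1, the kinase of that pathway, averaged 30.6 ± 2.97 FPKM in CD40LΔ5 and 24.7 ± 2.06 FPKM in WT (SD, n = 3 each; log2 difference 0.30 ± 0.10 SE, limma adjusted p = 1).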

How the data were processed

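The authors deposited FPKM values per gene for each of the 6 libraries, with gene lengths and types, and a table of FPKM means. The labels' protocols give 1 µg of total RNA as input to a TruSeq kit, which keeps no strand. Per the submitters' processing notes, CASAVA 1.8.2, STAR and DESeq2 were used, with no role stated, and the build was mm9, but the coordinates in the files are those of GRCm38: 34490 of 35275 identifiers are in GENCODE M21 and 24932 have the same start and end. How reads were counted is not given in the sources. FPKM times length gave whole reads for 100% of values (tolerance 0.01 reads), so 1 read is worth 0.0359 to 0.0411 FPKM at 1 kb, and intervals would cover counting error only.

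The members, the lists and the rule for named genes were chosen with earlier results of these data known. The rule took the 12 highest lincRNAs, the 5 smallest p in each direction of each comparison, the 6 widest ranges, 3 on each side of the level limit, those with a proper symbol and those with a miRNA or snoRNA gene in the span on either strand. Other genes were named as nearest coding neighbours within 5 kb or from the 3 smallest p of their list. Cd79a and Cd3e were given as markers of cell type, and a few genes for their position beside or over a lincRNA. log2(FPKM + 1) values were fitted by limma 3.58.1 (R 4.3.3; lmFit, then eBayes with its trend option) over the 11252 genes that reached a mean of 1 FPKM. Tests were two-sided, adjusted after Benjamini-Hochberg over all of these and called at 0.05. Log2 differences on this scale understate the change of low genes. The procedure was tested on simulated data. A count test is not the main result for FPKM, so voom on the recovered reads, with trimmed-mean (TMM) scaling, was an alternative. Sequences came from RefSeq tables by name and position.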

Additional observations from a re-analysis of the deposited data

How the results depend on the processing

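The count of lincRNAs that passed the test stayed at 0 by the labels and by the table of means in every alternative run: pseudocounts of 0.1 and 0.5, no filter and a filter of 0.5 FPKM, median and upper quartile scaling, a correction for gene length, other variance settings, voom on the recovered reads, no immunoglobulin genes, Yam1 out of the totals (chosen after seeing the data) and each library left out. The median log2 difference by the labels lay between -0.06 and 0.22 with 1 library left out, so its sign rests on single libraries, and by the table between 0.25 and 0.44. Other settings gave 0.05 to 0.11 by the labels and 0.29 to 0.48 by the table. Of the values of the 75 named lincRNAs under an alternative, 52 moved by more than the spread between replicates, mostly with a pseudocount of 0.1 or voom, and 2723 did not.

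The labels do not say that replicate numbers pair the libraries. Deviations of same-numbered libraries had correlations of -0.38, 0.06 and 0.38 over all genes and of -0.18, 0.38 and 0.25 over the lincRNAs. Not every pair was thus above 0.1. Libraries of unlike number gave -0.63 to 0.56 over all genes and -0.57 to 0.51 over the lincRNAs. Each deviation was taken from the mean of its genotype, so these values are not independent and cannot decide the pairing. With a replicate block the labels again gave 0 calls among the lincRNAs, with 5 higher and 2 lower at an unadjusted p under 0.05. No paired analysis was possible because the sets of the table of means share fewer than 2 replicate numbers. With 3 libraries a set, an exact permutation test of a single value cannot give a p under 0.1, and lincRNAs with a few reads per library carry little information.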
